A study of Mus musculus with 8 samples.

Results

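Open chromatin around 9 mouse genes of iron uptake, storage, export and heme breakdown was examined with ATAC-seq, an assay whose Tn5 enzyme cuts and tags accessible DNA. The genes were chosen by role together with a measured value: Steap3 was included because a region near it ranked high among those that appeared with hypoxia in monoculture. They are Tfrc, Steap3, Slc11a1, Slc11a2, Fth1, Ftl1, Slc40a1, Hmox1 and Ireb2, 9 of 21887 protein-coding genes in the annotation. Peaks that overlapped between libraries were merged into regions, and 31 of 40784 regions lay within 10 kb of the body of a member gene. Most values below describe these 31 regions, and no test was made, since the members were picked with these data in view.

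The cells were BV2, an immortalised mouse microglial line, grown in 4 groups of 2 biological replicates. The groups were monoculture in normoxia (21% oxygen), monoculture in hypoxia (below 0.1% oxygen for 16 h), co-culture with GL261 mouse glioma cells in normoxia, and co-culture in hypoxia. In co-culture, 2 GL261 cells were seeded for each BV2 cell, and cells were later sorted for the leukocyte surface protein CD45 or for GFP. Cells were fixed with formaldehyde before sorting, and 50000 were used per library. A peak reports accessible chromatin of a cell line in a dish, not RNA and not brain microglia, and in such pooled cells a region open in fewer cells and one less open in each cell cannot be told apart.

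Cells take up iron by binding transferrin at the transferrin receptor and drawing it into endosomes, where the metal is reduced and carried into the cytosol. Iron that is not used is stored in ferritin shells or exported through ferroportin, and heme is opened by heme oxygenase to release its iron. Iron regulatory proteins bind hairpins in the messages of the transferrin receptor, ferritin and ferroportin, among others, and set their stability or translation according to iron supply. Microglia are macrophages of the brain that take up, store and recycle iron, and several of these genes are known targets of hypoxia-inducible factors or of the oxidative stress response.

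Presence of a peak went largely with the length of a library's list, which ran from 9910 to 29658 peaks. Both monoculture normoxia lists, of 13333 and 9910 peaks, were shorter than any other, so list length and condition cannot be told apart there. A peak lay in 8 and 5 of the 31 regions in monoculture normoxia, 17 and 18 in monoculture hypoxia, 14 and 16 for normoxic co-culture and 28 and 17 for hypoxic co-culture (replicates 1 and 2). The shares of all 40784 regions with a peak ran in parallel, from 23.1% and 30.8% in monoculture normoxia to 70.7% in co-culture hypoxia replicate 1. Member regions exceeded that share most in the last of these libraries, where 90.3% of them had a peak. Of the 31 regions, 4 were called in every library and 8 in a single library, and 5 of those 8 were seen in co-culture hypoxia replicate 1, which had the longest list. Read totals were not used here, so a missing peak means that a region did not pass the peak caller's threshold in that library.

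**Figure D1:**
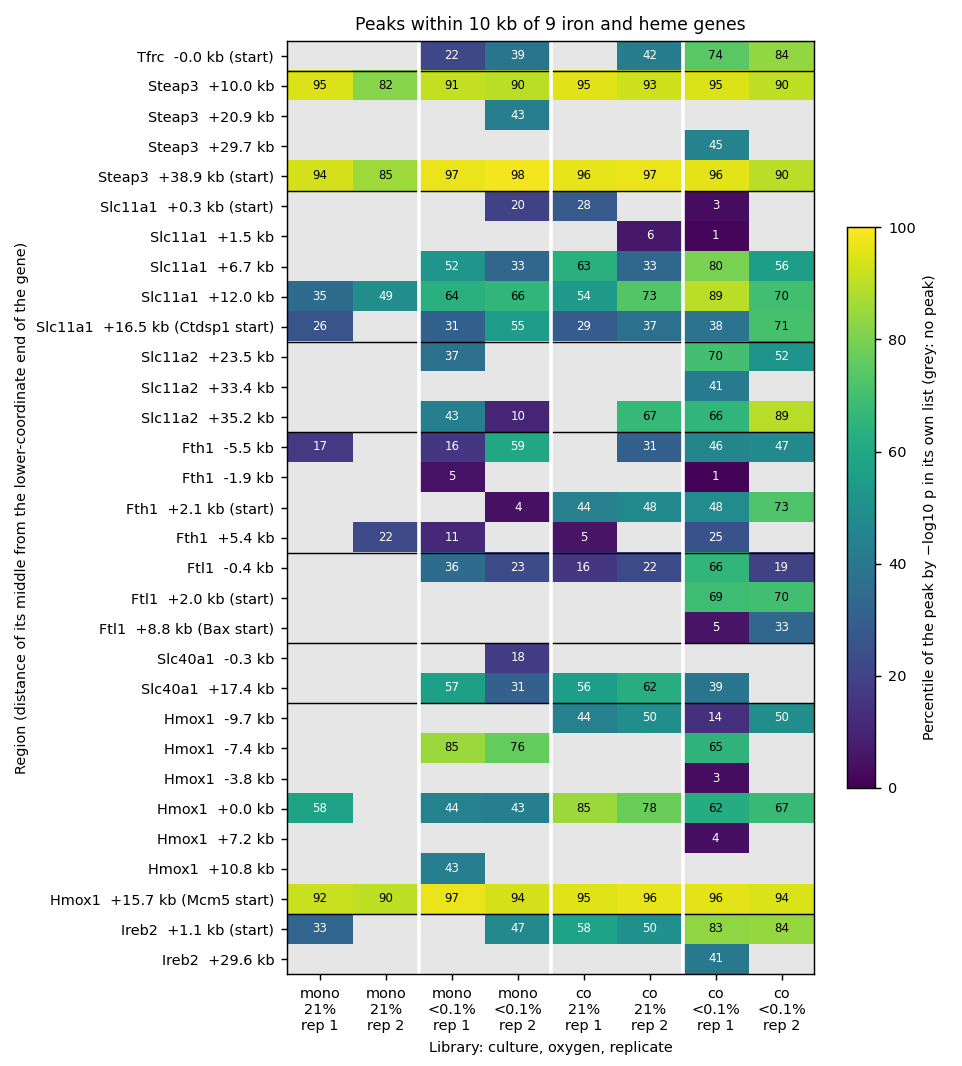
Percentile of the strongest peak of each of the 31 regions (rows, named by gene and by the distance in kb of the region's middle from the lower-coordinate end of the gene) in each of the 8 libraries (columns). A percentile is the rank by −log10 p within the library's own list, and grey marks no peak. Of the Steap3 rows, 2 are filled in all 8 columns, while the Ftl1 start row is filled only in the hypoxic co-culture pair.

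Each peak was placed in its own list by a percentile, its rank by −log10 p as a percent of the peaks in that list, with ties averaged. Because lists differ in length, a second measure was used between libraries. This standing is the share of the 6375 regions with a peak in all 8 libraries whose peaks rank below the member's peak in the same library, so the reference regions are the same everywhere.

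The first group of results concerns annotated gene starts. A member region overlapped the RefSeq start window (GRCm38.p6, 250 bases before to 50 after the start) of 6 members, namely Tfrc, Steap3, Slc11a1, Fth1, Ftl1 and Ireb2. Start windows of Slc11a2, Slc40a1 and Hmox1 were not used here. For Tfrc, Ftl1, Fth1 and Ireb2 the region stood higher in both hypoxic co-culture libraries than in any of the other 6 libraries, with a missing peak counted as lowest. That is 4 of 6 member starts (66.7%), beside 31.7% of the 8451 regions at annotated starts of all genes. The shares of start regions that stood highest in both libraries of another group were 2.14% for monoculture normoxia, 2.32% for monoculture hypoxia and 6.25% for co-culture normoxia, and no member start was among them. A start that stands highest in hypoxic co-culture was thus common among all genes. The median standing of all start regions with a peak was also higher in co-culture hypoxia, at 31.6% and 45.1%, than in co-culture normoxia, at 25.4% and 29.2%, or monoculture hypoxia, at 24.5% and 21.7%, and its part in the member starts was not tested. In monoculture normoxia, with the shortest lists, it was 39.7% and 45.0%. The sequences of those 4 starts, and of the Steap3 start that had a peak in every library, are given from RefSeq (GRCm38.p6), 5′ to 3′ on the strand of the gene, from 250 bases before the start to the first 30 after it. Capitals mark ACGTG, a form of the core that hypoxia-inducible factors bind, and CCAAT, the box bound by NF-Y, or their complements CACGT and ATTGG. The stretches are chr16:32608646-32608925 (plus strand) for Tfrc, chr7:45459857-45460136 (minus strand) for Ftl1, chr19:9982396-9982675 (plus strand) for Fth1, chr9:54863505-54863784 (plus strand) for Ireb2 and chr1:120265257-120265536 (minus strand) for Steap3.

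Tfrc: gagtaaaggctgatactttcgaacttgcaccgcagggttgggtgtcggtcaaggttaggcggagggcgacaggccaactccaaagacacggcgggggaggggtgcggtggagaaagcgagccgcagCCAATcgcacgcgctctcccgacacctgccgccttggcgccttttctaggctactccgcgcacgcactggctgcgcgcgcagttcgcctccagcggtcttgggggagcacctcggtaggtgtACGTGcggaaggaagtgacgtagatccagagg
Ftl1: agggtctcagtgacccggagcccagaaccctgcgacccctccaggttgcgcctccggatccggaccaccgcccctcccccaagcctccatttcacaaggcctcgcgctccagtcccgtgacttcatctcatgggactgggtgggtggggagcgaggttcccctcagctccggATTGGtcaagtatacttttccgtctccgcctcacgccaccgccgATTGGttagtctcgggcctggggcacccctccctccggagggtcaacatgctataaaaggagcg
Fth1: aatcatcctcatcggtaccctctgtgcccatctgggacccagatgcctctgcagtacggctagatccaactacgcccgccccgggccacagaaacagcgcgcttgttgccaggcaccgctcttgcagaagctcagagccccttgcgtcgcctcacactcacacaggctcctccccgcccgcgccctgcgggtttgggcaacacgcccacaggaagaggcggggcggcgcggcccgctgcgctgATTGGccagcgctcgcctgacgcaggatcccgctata
Ireb2: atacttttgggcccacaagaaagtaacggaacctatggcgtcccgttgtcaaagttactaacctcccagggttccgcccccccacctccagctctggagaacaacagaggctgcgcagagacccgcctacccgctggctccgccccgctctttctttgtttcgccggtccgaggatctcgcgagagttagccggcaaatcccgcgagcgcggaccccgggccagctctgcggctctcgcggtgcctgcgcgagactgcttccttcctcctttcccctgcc
Steap3: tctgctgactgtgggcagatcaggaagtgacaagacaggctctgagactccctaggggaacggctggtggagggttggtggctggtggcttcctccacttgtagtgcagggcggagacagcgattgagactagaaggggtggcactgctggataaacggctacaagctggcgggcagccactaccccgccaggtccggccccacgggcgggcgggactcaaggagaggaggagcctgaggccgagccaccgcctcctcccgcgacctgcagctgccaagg

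All 5 stretches were rich in G and C, from 63.2% in Ireb2 to 66.4% in Fth1, beside a median of 52.7% over the 32851 start windows of the table. Slc11a1, whose start is not printed because it neither stood highest in hypoxic co-culture nor had a peak in every library, held 51.8%. Letters matching ACGTG were found in the Tfrc stretch alone, at position −2 from the annotated start. On either strand, 19.6% of all start windows of 300 bases hold them. The form GCGTG was not searched or marked, so the other stretches cannot be said to lack the core. The CCAAT box was matched at −124 in Tfrc, at −78 and −34 in Ftl1 and at −7 in Fth1, and 37.4% of all windows hold it. No match to TGACNNNGC, the core of the antioxidant response element, or to TGANTCA, the AP-1 site, was found in these windows, against 12.4% and 7.81% of all windows. The motifs share no letters at any of these matches. A match describes the letters and does not show that a factor was bound.

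Tfrc encodes transferrin receptor 1, which carries transferrin-bound iron into the cell. Its start region (chr16:32608463-32609288), the sole region within 10 kb of the gene, had no peak in either monoculture normoxia library. The percentile was 21.5 and 38.9 in monoculture hypoxia, 42.0 in replicate 2 of co-culture normoxia with no peak in replicate 1, and 74.3 and 83.9 in co-culture hypoxia. On the common reference the standing was 2.31% and 7.67% in monoculture hypoxia, 7.11% in the co-culture normoxia library with a peak, and 38.1% and 64.0% in co-culture hypoxia. The hypoxic co-culture pair lay above every other library, and the monoculture hypoxia pair overlapped the co-culture normoxia library. Summits of its 5 peaks lay at positions −99 to 60 from the annotated start.

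Ireb2 encodes iron regulatory protein 2, an RNA-binding sensor whose amount rises when iron or oxygen is scarce. Its start region (chr9:54863367-54864177) had a peak in replicate 1 of monoculture normoxia at percentile 32.7, in replicate 2 of monoculture hypoxia at 47.05, in co-culture normoxia at 58.2 and 50.2, and in both hypoxic co-cultures at 83.3 and 84.1. The standing was 13.6% in the normoxic and 11.9% in the hypoxic monoculture library with a peak, 17.8% and 11.6% in co-culture normoxia, and 53.5% and 64.2% in co-culture hypoxia. Every library outside hypoxic co-culture stood below 20%, or had no peak, and the hypoxic co-culture pair did not overlap them. Summits of its 6 peaks lay at positions −178 to −76 from the start. A further region inside the gene had a peak in co-culture hypoxia replicate 1 alone.

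Ferritin stores iron in a shell of heavy and light chains. Ftl1 encodes the light chain, and its start region (chr7:45459707-45460100) had a peak in co-culture hypoxia alone, at percentiles 68.8 and 69.6 and standings of 30.6% and 42.2%. None of the other 6 libraries had a peak there. Fth1 encodes the heavy chain, which oxidises iron for storage. The region at its second annotated start (chr19:9982426-9983003) had no peak in monoculture normoxia and in monoculture hypoxia replicate 1, and lay at percentile 4.32 in replicate 2. It had percentiles of 43.7 and 47.5 in co-culture normoxia and 48.2 and 72.5 in co-culture hypoxia. Its standing was 8.44% and 10.0% in co-culture normoxia and 12.3% and 46.2% in co-culture hypoxia, so replicate 1 of co-culture hypoxia lay just above the normoxic pair and replicate 2 well above it. The mouse genome holds processed copies of both ferritin genes, and how reads with several matches were treated is not given in the sources used here.

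A region across the lower-coordinate end of Ftl1, the end of the transcript, had a peak in all 6 libraries outside monoculture normoxia, at percentiles from 15.9 to 65.9. Fth1 had a region 5286 bp before its lower end in 6 libraries, from percentile 15.8 to 59.4, and one 43 bp past its higher end that also overlapped Best1, in 4 libraries from 5.42 to 25.1. The region called in both hypoxic co-culture libraries 6617 bp past Ftl1 sat on the start window of Bax, a neighbouring gene.

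Steap3 encodes the ferrireductase that reduces iron in endosomes before transport. The region over its printed start (chr1:120264650-120265925, 1276 bp) was called in every one of the 8 libraries. Its percentiles were 93.6 and 85.4 in monoculture normoxia, 97.1 and 98.2 in monoculture hypoxia, 96.3 and 97.0 in co-culture normoxia, and 96.0 and 89.6 in co-culture hypoxia. The standing was 87.5% and 77.7%, 89.9% and 93.0%, 88.0% and 90.3%, and 84.9% and 74.4% in the same order. Both hypoxic libraries thus stood above both normoxic libraries in monoculture and below them in co-culture. A second region inside the gene (chr1:120235761-120237114) was also called in all 8 libraries, with percentiles from 81.9 to 95.4 and standings from 68.3% to 89.6%. In monoculture its hypoxic pair, at 72.4% and 68.3%, lay below the normoxic pair, at 89.6% and 72.5%, but the pairs nearly met. In co-culture the hypoxic pair, at 81.2% and 76.2%, overlapped the normoxic pair, at 85.3% and 77.4%. The other 3 annotated starts of Steap3 had no peak in any library.

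The region through which Steap3 was chosen lay outside the 10 kb window. It spanned chr1:120305307-120306323, 34.2 kb past the higher-coordinate end of Steap3 and 34.3 kb from C1ql2, the next protein-coding gene on its other side, so it was about as near to either gene. It had no peak in monoculture normoxia, percentiles of 97.4 and 98.7 in monoculture hypoxia, 36.4 in replicate 1 of co-culture normoxia with none in replicate 2, and 95.5 and 91.6 in co-culture hypoxia. By its lower percentile in the hypoxic monoculture pair it ranked 3 of the 7229 regions gained in that contrast, which is how it came to be picked and is no finding here. In co-culture its standing was 5.11% in the normoxic library with a peak and 83.6% and 78.6% in the hypoxic pair, which did not overlap. Within 10 kb of Steap3, no region was gained or lost with hypoxia in either culture.

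Slc11a2 and Slc11a1 encode the metal transporters DMT1, which moves iron out of endosomes, and NRAMP1, which moves metal ions out of macrophage phagosomes. Slc11a2 had no peak within 10 kb in monoculture normoxia or in co-culture normoxia replicate 1. Its region nearest the higher-coordinate end (chr15:100422777-100423400), which also touches the long non-coding RNA gene Gm5475, had percentiles of 43.2 and 10.2 in monoculture hypoxia, 66.8 in co-culture normoxia replicate 2, and 65.8 and 89.2 in co-culture hypoxia. Its standing was 10.8% and 0.439%, 26.2%, and 27.0% and 73.7% in that order, so replicate 1 of co-culture hypoxia was hardly above the normoxic co-culture library. A region inside the gene (chr15:100411150-100411697) had peaks in both hypoxic co-culture libraries, at percentiles 70.0 and 51.6, and in monoculture hypoxia replicate 1, at 37.1. No normoxic library had a peak there.

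Around Slc11a1 the annotated start had a peak in just 3 libraries, from 3 groups, at percentiles of 19.5, 28.1 and 3.36. A region inside the gene (chr1:74381449-74381963) had no peak in monoculture normoxia, and percentiles of 52.1 and 33.1 in monoculture hypoxia, 63.4 and 33.2 in co-culture normoxia and 79.9 and 55.9 in co-culture hypoxia. It was thus gained both with hypoxia in monoculture and with co-culture in normoxia, and those contrasts share the same normoxic monoculture libraries. A region 638 bp past the gene (chr1:74386695-74387306) had a peak in all 8 libraries, with standings of 15.6% and 31.2% in monoculture normoxia, 27.7% and 27.9% in monoculture hypoxia, 14.3% and 35.1% in co-culture normoxia and 66.7% and 42.3% in co-culture hypoxia. The hypoxic co-culture pair stood highest there as well. The last region, in 7 libraries, lay on the start window of the neighbouring gene Ctdsp1.

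**Figure D2:**
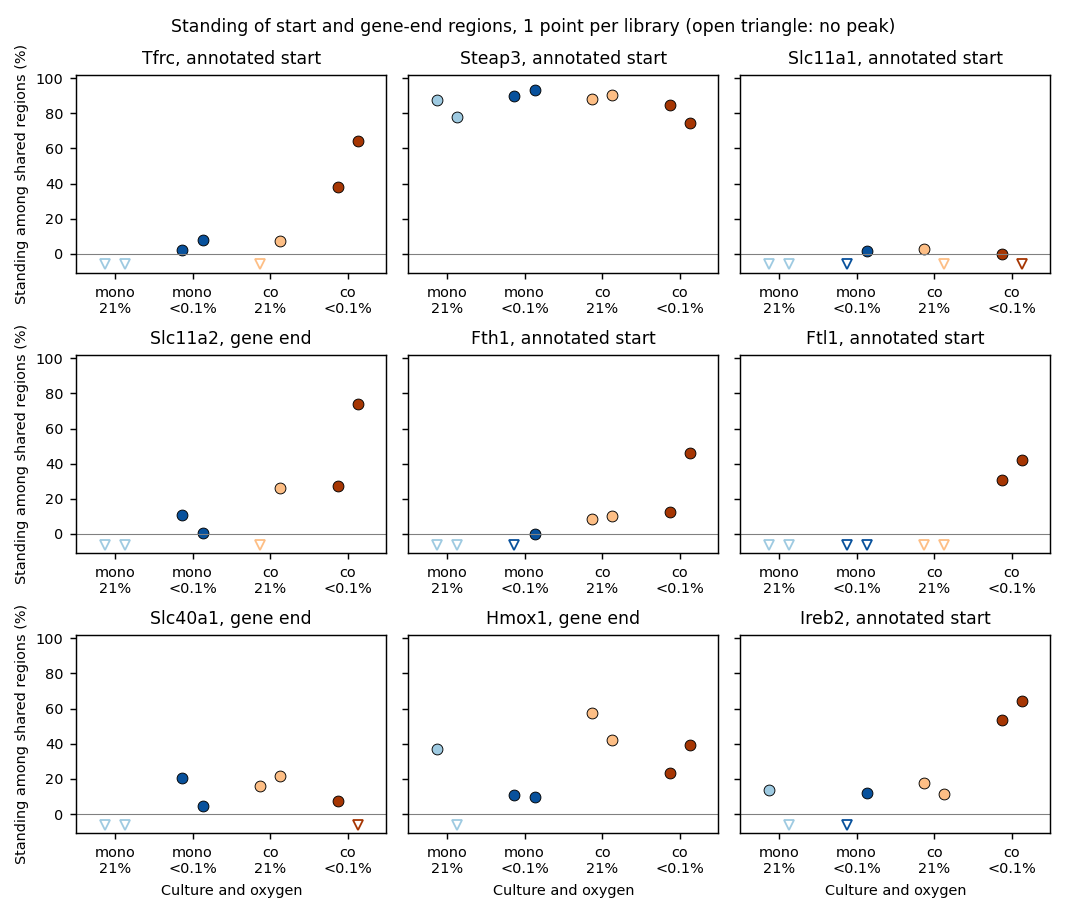
Standing (%) of 1 region per member gene by group, 1 filled point per library, with an open triangle below 0 where the library had no peak. The region is the one at the annotated start where the table gives it, and otherwise the one at a gene end. Tfrc, Ireb2 and Ftl1 stand highest in hypoxic co-culture (38.1% and 64.0%, 53.5% and 64.2%, 30.6% and 42.2%), Slc40a1 has no peak in 1 library of that group, and Steap3 stays above 74% in all 8.

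Slc40a1 encodes ferroportin, the exporter of iron from cells. Its main region (chr1:45924996-45925917), which ends 615 bp inside the higher-coordinate end of the gene, had no peak in monoculture normoxia, percentiles of 56.9 and 30.6 in monoculture hypoxia, 56.1 and 62.4 in co-culture normoxia, and 38.8 in replicate 1 of hypoxic co-culture with no peak in replicate 2. The standing was 20.7% and 4.48%, 16.1% and 21.5%, and 7.43% in the same order. Hypoxic libraries thus lay above normoxic ones in monoculture and below them in co-culture. When every list was cut to the 9910 peaks with the highest −log10 p, the length of the shortest list, the region had a peak in both co-culture normoxia libraries and in no other.

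Hmox1 encodes heme oxygenase 1, which degrades heme to biliverdin, carbon monoxide and iron and is induced by heme and oxidative stress. The gene had 7 regions within 10 kb, the most of any member, and they differed in pattern. The region across its lower-coordinate end (chr8:75093271-75094025) had percentiles of 58.2 in monoculture normoxia replicate 1 with no peak in replicate 2, 43.8 and 43.2 in monoculture hypoxia, 85.0 and 77.7 in co-culture normoxia, and 62.1 and 67.5 in co-culture hypoxia. Its standing was 36.8%, 11.1% and 9.71%, 57.6% and 42.2%, and 23.3% and 39.5% in that order. Co-culture normoxia stood above all other libraries at this region, and in both oxygen states the co-culture pair stood above the monoculture pair.

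A pair of regions before Hmox1 differed in which libraries had a peak. The region 9404 bp before the gene (chr8:75083643-75084214) was called in each of the 4 co-cultures, at percentiles 43.7 and 49.9 in normoxia and 13.5 and 49.7 in hypoxia, and in no monoculture library. It was the sole member region to divide the cultures in this way, 1 of 31 (3.23%) beside 1.98% of all regions, and in lists of equal length it was called in no library. The region 7016 bp before the gene (chr8:75085894-75086602) had a peak in both monoculture hypoxia libraries, at 85.1 and 76.5, and in co-culture hypoxia replicate 1 at 64.8, and in no normoxic library. Its standing was 59.0% and 41.7% in monoculture hypoxia and 26.1% in the co-culture library, so it stood highest in hypoxic monoculture. In lists of equal length it was called in the hypoxic monoculture pair alone. The strongest region of the window, in all 8 libraries from percentile 90.3 to 97.1, lay 8125 bp past Hmox1 on the start window of Mcm5, a replication gene.

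**Figure D3:**
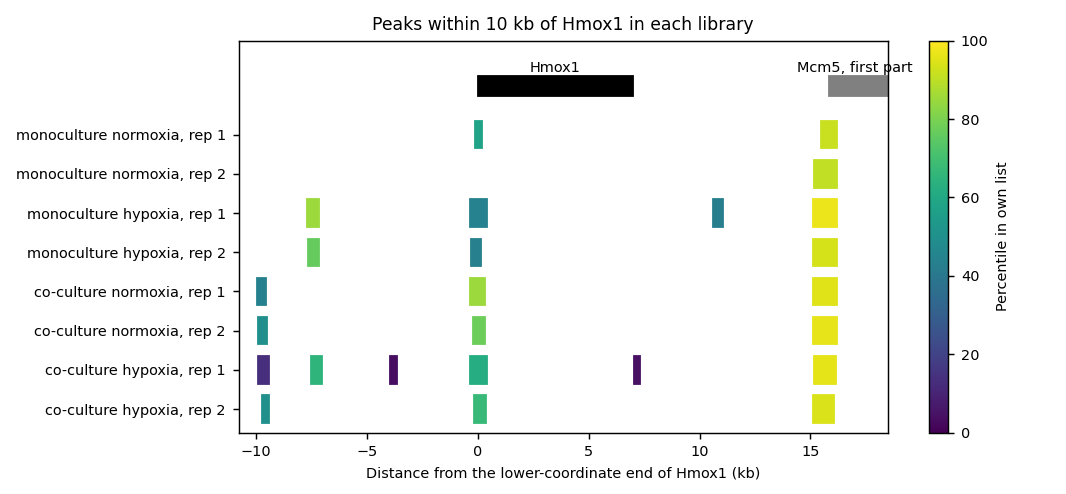
Peaks of each library (rows) around Hmox1, by distance in kb from the lower-coordinate end of the gene, coloured by percentile in the library's own list, with the bodies of Hmox1 and of the first part of Mcm5 above. The leftmost region is filled in the 4 co-culture rows, the next in both monoculture hypoxia rows and in co-culture hypoxia replicate 1, and the Mcm5 start in all 8.

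Counts over the 31 regions were then set beside all 40784. A region counted as gained in a contrast where a peak was called in both replicates of the named condition and in no replicate of its reference, and as lost in the reverse case. With hypoxia in monoculture, the contrast through which Steap3 was picked, 6 member regions (19.4%) were gained, beside 17.7% of all regions, and none was lost, beside 0.179%. With hypoxia in co-culture, 3 (9.68%) were gained, the start regions of Ftl1 and of its neighbour Bax and the inner Slc11a2 region, beside 6.09% of all, and none was lost, beside 2.05%. With co-culture in normoxia, 5 (16.1%) were gained, at Slc11a1, Fth1, Ftl1, Slc40a1 and Hmox1, beside 12.5%, and none was lost, beside 0.181%. With co-culture in hypoxia, 3 (9.68%) were gained, the Ftl1 and Bax starts and the region 9404 bp before Hmox1, beside 5.83%, and none was lost, beside 3.76%. Complete division by oxygen, with peaks in the 4 hypoxic libraries alone, was seen at no member region, beside 2.08% of all regions, and the reverse also at none, beside 0.0196%. No member region had a peak in all 4 monoculture and no co-culture library, beside 0.027% of all. These shares lay within a few regions of the background.

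Counted by gene, 6 of 9 members had a region gained with hypoxia in monoculture, beside 33.1% of the 15213 protein-coding genes with a region in any library, 2 with hypoxia in co-culture, beside 13.7%, 5 with co-culture in normoxia, beside 30.7%, and 2 with co-culture in hypoxia, beside 15.1%. Members had more regions per gene than those genes, 3.44 against 2.62 on average, and the part of this in the gene counts was not tested. Single libraries set several of these counts, and the share of all regions moved with most of them. Without co-culture hypoxia replicate 2, gains with hypoxia in co-culture numbered 10 (32.3%, beside 20.6% of all regions under the same omission), and those with co-culture in hypoxia numbered 9 (29%, beside 16.8%). Without co-culture normoxia replicate 2, gains with hypoxia in co-culture numbered 6 (19.4%, beside 9.27%). Without monoculture hypoxia replicate 1, gains with hypoxia in monoculture numbered 10 (32.3%, beside 30.2%). Gains with co-culture in normoxia numbered 8 (25.8%) both without monoculture normoxia replicate 1 (beside 20.6%) and without co-culture normoxia replicate 1 (beside 21.2%). Without monoculture hypoxia replicate 2, gains with co-culture in hypoxia numbered 5 (16.1%, beside 8.65%). Peaks in every remaining hypoxic library and no remaining normoxic one were seen at 2 member regions without co-culture normoxia replicate 2 (6.45%, beside 3.13%), and at 1 (3.23%) without monoculture hypoxia replicate 2 (beside 2.69%) or co-culture hypoxia replicate 2 (beside 4.45%). Losses with co-culture in hypoxia numbered 2 (6.45%) without monoculture hypoxia replicate 1 or co-culture hypoxia replicate 1 (beside 11.4% in either case) and 1 (3.23%) without monoculture hypoxia replicate 2 (beside 8.12%). Losses with hypoxia in co-culture numbered 1 (3.23%) without co-culture hypoxia replicate 1 (beside 6.44%).

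**Figure D4:**
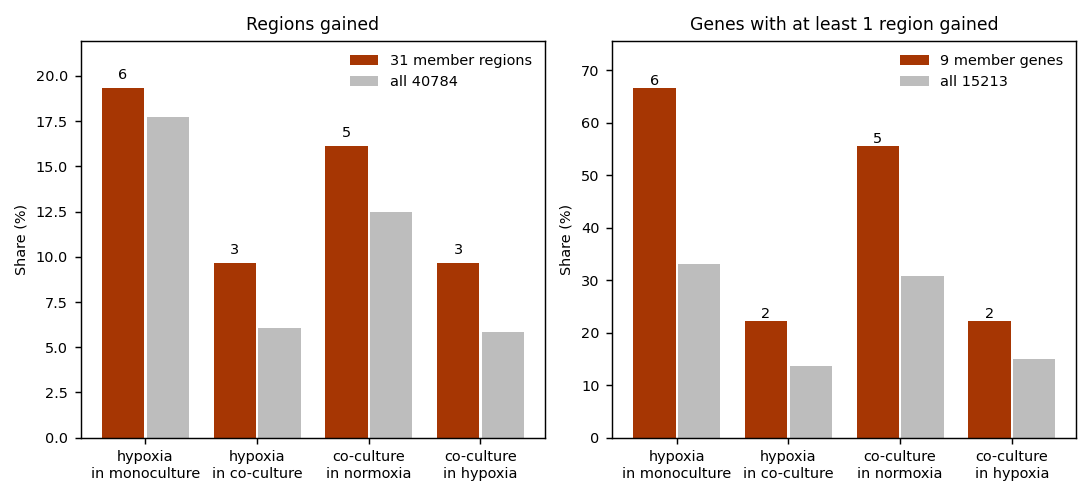
Share (%) of regions gained (left) and of genes with at least 1 gained region (right) in 4 contrasts, for members (brown, with the number above each bar) and for all regions or all protein-coding genes with a region (grey). The bars start at 0. Members and background alike have their highest share for hypoxia in monoculture (19.4% and 17.7% of regions) and the next for co-culture in normoxia (16.1% and 12.5%).

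In lists of equal length, 16 member regions remained to be counted among 19790. Gains and losses were then 1 and 0 with hypoxia in monoculture, beside 7.39% and 5.15% of all regions, and 2 (Tfrc and Ftl1 starts) and 1 (Slc40a1) with hypoxia in co-culture, beside 5.45% and 5.73%. They were 1 (Slc40a1) and 0 with co-culture in normoxia, beside 4.88% and 2.96%, and 4 and 1 with co-culture in hypoxia, beside 7.39% and 7.01%. The 4 gains with co-culture in hypoxia were the starts of Tfrc, Ftl1 and Ireb2 and the inner Slc11a1 region, and the loss was the region 7016 bp before Hmox1. Over all 31 regions as deposited, 9 (29%) stood highest in both hypoxic co-culture libraries, beside 13.9% of all regions. For monoculture normoxia none did, beside 1.64%, and for monoculture hypoxia and co-culture normoxia 1 Hmox1 region each did (3.23%), beside 10.1% and 3.22%.

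The rest of the pathway was read from a list of 60 other iron and heme genes. A peak within 10 kb was found for 29 and 30 of them in monoculture normoxia, 44 and 46 in monoculture hypoxia, 47 and 48 in co-culture normoxia, and 51 and 46 in co-culture hypoxia. Of the 60 genes, 53 had a region in any library. With hypoxia in monoculture, regions were gained at 17 of these 53 (32.1%, beside 33.1% of all 15213 protein-coding genes with a region) and lost at none (beside 0.572%). With hypoxia in co-culture they were gained at 3 (5.66%, beside 13.7%) and lost at 2 (3.77%, beside 4.73%). With co-culture in normoxia they were gained at 17 (32.1%, beside 30.7%) and lost at none (beside 0.309%). With co-culture in hypoxia they were gained at 9 (17%, beside 15.1%) and lost at 4 (7.55%, beside 7.24%). The pathway list thus lay near the background, and below it for gains with hypoxia in co-culture. A single list gene, Alad, which makes porphobilinogen in heme synthesis, had a region called in the 4 hypoxic libraries alone (chr4:62496858-62497249, percentiles from 60.9 to 75.9). That is 1 of the 129 regions of the list (0.775%, beside 2.08% of all regions). Regions called in the 4 co-cultures and in no monoculture lay near Fech, the last enzyme of heme synthesis (from 54.3 to 71.8), Mafk, a partner of NRF2 and BACH1 (chr5:139791135-139791652, from 31.1 to 65.9), Lrp1, a receptor for hemopexin-bound heme (from 17.1 to 49.3), and Fbxl5, which marks iron regulatory proteins for degradation (from 9.51 to 36.9). These are 4 of the 129 (3.1%, beside 1.98%). Among the gains with hypoxia in monoculture were regions near Bach1, a heme-sensing repressor (percentiles from 81.2 to 83.5), and Blvrb, a biliverdin reductase (from 68.7 to 82.8). The Bach1 region was absent from both hypoxic co-culture libraries.

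Markers of the labelled cell type had peaks in every group. Of 14 microglia and macrophage markers, 10 and 9 had a peak within 10 kb in monoculture normoxia, 12 and 12 in monoculture hypoxia, 13 and 14 in co-culture normoxia and 13 and 11 in co-culture hypoxia. Ptprc, which encodes CD45, Csf1r, Cx3cr1 and P2ry12 had one in each of the 8 libraries, while Tmem119 and Itgam had one in 3. Of 14 glioma and glial markers, none had a peak in monoculture normoxia, 3 and 3 did in monoculture hypoxia, 6 and 4 in co-culture normoxia and 9 and 6 in co-culture hypoxia. Gfap, Nes, Sox2 and Pdgfra had a peak in 3 of 4 co-culture libraries and in no monoculture library. Olig1 and Sox10 had one in 2 and 1 co-culture libraries and in no monoculture library. S100b, Nkx2-2, Msi1 and Cspg4 had one in 2, 2, 1 and 1 monoculture libraries and in 2, 3, 3 and 2 co-culture libraries. Olig2, Sox9, Egfr and Ptprz1 had a peak in no library. The glial marker count was thus higher in co-culture than in monoculture at each oxygen level, and highest in hypoxic co-culture replicate 1, which had the longest list. The share of all protein-coding genes with a peak ran the same way. It was 42.8% and 35.8% in normoxic monoculture, 57.5% and 58.4% under hypoxia in monoculture, 59.0% and 59.9% in co-culture normoxia and 64.5% and 60.5% in co-culture hypoxia. The part of glial markers in the co-culture results, the starts of Tfrc, Ireb2, Ftl1 and Fth1 included, was not tested.

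**Figure D5:**
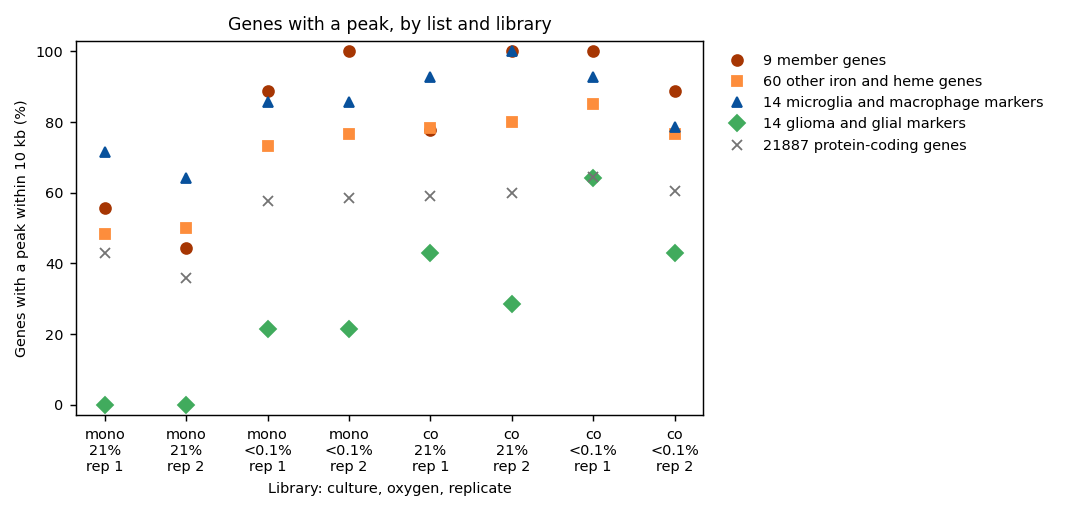
Share (%) of genes with a peak within 10 kb in each library for the 9 members, 60 other iron and heme genes, 14 microglia and macrophage markers, 14 glioma and glial markers and all 21887 protein-coding genes. All lists are lowest in monoculture normoxia, where 55.6% and 44.4% of members and no glioma and glial marker had a peak.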

How the data were processed

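ATAC-seq peaks of 8 BV2 libraries were analysed. Trimmomatic 0.36, HISAT2 2.1.0, Picard, SAMtools, deepTools, MACS2 2.1.1.2 and the build mm10 are named per the submitters' processing notes, with no settings, so trimming, duplicate removal and the Tn5 shift are not known here. The authors deposited 1 peak list per library, not pooled, and no lists of reads were used. Each deposited list gives a fold enrichment (a ratio to the library's own background), a −log10 p, a −log10 q whose lowest value is just above 2, a score derived from the −log10 q, and a summit offset. Folds and p-values are the authors' own, and were used within a list only. Peak names carry a code that is the same in all normoxic lists and another in all hypoxic lists, and what it marks is not given in the sources used here, so a batch behind it and oxygen cannot be told apart.

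Peaks were merged where they overlapped by at least 1 bp. Genes and starts came from RefSeq tables of GRCm38.p6, which is mm10, and all 9 members, 60 pathway genes and 28 markers matched. Coordinates are 1-based. The members and lists were chosen with earlier results of these data known. Named genes are all members and, from the pathway list, those dividing the levels of a factor or leading a contrast. A result that this rule would name is not reported here. Alternatives were equal-number lists, a −log10 q of at least 5, windows of 2 and 50 kb, 50% coverage of a region, other ranks and leaving out each library. Region merging and counting were checked on made-up peaks. Python 3.11.15, numpy 2.4.6, pandas 2.3.3 and matplotlib 3.10.9 were used.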

Additional observations from a re-analysis of the deposited data

Results flagged for a closer look

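At 2 member regions every hypoxic library moved one way against the normoxic libraries in monoculture and the opposite way in co-culture. They are 6.45% of the 31, beside 2.2% of all 40784 regions, and the difference was not tested. At the Steap3 start the hypoxic libraries stood above the normoxic ones in monoculture. In co-culture the hypoxic libraries, at 84.9% and 74.4%, stood below both normoxic libraries, at 88.0% and 90.3%. The gap within that hypoxic pair was wider than the gap from its higher library to either normoxic one. At the higher-coordinate end of Slc40a1 the normoxic monoculture libraries had no peak, and in co-culture the single hypoxic library with a peak stood at 7.43%, below the normoxic pair at 16.1% and 21.5%. The normoxic monoculture lists are the shortest, and in lists of equal length this region was called in neither monoculture group, so the move in monoculture was no longer seen.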

How the results depend on the processing

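Counts of gained and lost member regions stayed within 1.5 times with a −log10 q of at least 5, with peaks covering 50% of a region, and, chosen after seeing the data, without regions at the starts of Mcm5, Ctdsp1 and Bax. Equal-number lists gave 1 gain with hypoxia in monoculture, 1 gain with co-culture in normoxia, 1 loss with hypoxia in co-culture and 1 loss with co-culture in hypoxia. They held peaks at 3 and 3 member genes in monoculture hypoxia and at 5 in co-culture normoxia replicate 2. Windows of 2 kb held 23 member regions and gave 1 gain with co-culture in hypoxia, beside 5.83% of all regions. Windows of 50 kb held 59 member regions. They gave 12 gains with hypoxia in monoculture and 8 with co-culture in normoxia, beside 17.7% and 12.5% of all regions. They also gave 1 loss with co-culture in hypoxia (beside 3.76%) and 1 region in all hypoxic and no normoxic library (beside 2.08%). Leaving out each library gave 6 to 10 gains and 0 to 0 losses with hypoxia in monoculture, 3 to 10 and 0 to 1 with hypoxia in co-culture, 5 to 8 and 0 to 0 with co-culture in normoxia, and 3 to 9 and 0 to 2 with co-culture in hypoxia. It gave 0 to 2 regions in all hypoxic and no normoxic library, 0 to 0 in the reverse, and 4 to 4 member starts highest in hypoxic co-culture. That count was 3 by fold enrichment, also chosen after seeing the data. Ranked by fold enrichment, the highest member percentile was 83.5 in monoculture normoxia replicate 2, 93.8 and 95.6 in monoculture hypoxia and 92.6 in co-culture normoxia replicate 2. As a standing it was 89.6 and 85.2 in monoculture normoxia, 89.9 and 93.0 in monoculture hypoxia, 88.0 and 90.3 in co-culture normoxia, and 84.9 and 84.2 in co-culture hypoxia. The lists hold no depth, so absence of a peak cannot be bounded. No test was made, so no paired analysis was made either.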

Other observations

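Beyond the 10 kb window, a single region within 50 kb of a member was called in the 4 hypoxic libraries alone. That is 1 of 59 member regions in the wider window, beside 2.08% of all regions. The region lay at chr1:45860034-45860687, 47383 bp before the lower-coordinate end of Slc40a1, with percentiles of 21.6 and 40.7 in monoculture hypoxia and 41.8 and 25.6 in co-culture hypoxia.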
